A study of Triticum aestivum with 12 samples.

Results

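Cereal grains store proteins that block digestive enzymes. In the wheat (Triticum aestivum) genotypes IITR26 and WL711, 8 probe sets were followed through grain filling. They stand for such proteins or for an enzyme of a class that some of these act on. They are among the 61179 probe sets tested on the array. Except for an unnamed one, they were chosen by the names that the study's list of genotype differences gives them. The 8 are a trypsin/alpha-amylase inhibitor, CMX1/CMX3 (Ta.1550.2.S1_x_at), a subtilisin/chymotrypsin inhibitor (Ta.1297.1.S1_x_at), the chymotrypsin inhibitor WCI (Ta.10170.1.S1_at), a Bowman-Birk inhibitor (Ta.20928.1.S1_at), a Kunitz-type protease inhibitor (Ta.10028.1.S1_at) with a second, unnamed probe set of the same cluster (Ta.10028.1.S1_s_at), a subtilisin homologue (Ta.8527.1.A1_at) and a serpin (Ta.9999.3.S1_a_at). The subtilisin homologue is by its name a serine protease and not an inhibitor. Of the 8 probe sets, 7 stand in the study's own list of 580 probe sets that differed between these genotypes on these arrays. Their genotype differences are thus a description of that choice and not independent evidence. The same holds in part for changes of these differences with stage, since a difference at either stage was enough for that list. The second Kunitz cluster probe set is the one outside that list.

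IITR26 is a landrace and WL711 a cultivar, with contrasting levels of minerals in the grain (higher in IITR26), and both were field grown with no treatment. Developing grains were taken 14 and 28 days after anthesis (DAA), 3 grains per RNA sample, which gave 4 groups of 3 Affymetrix arrays each: IITR26 at 14 DAA, IITR26 at 28 DAA, WL711 at 14 DAA and WL711 at 28 DAA. Each genotype is a single line, so genotype cannot be told apart from anything else that differed between those plants in the field. The labels do not tie a replicate to a plant, and p-values measure the spread between the samples as deposited. The samples were whole grains, in which fewer cells of a type and less RNA per cell cannot be told apart.

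Plants defend stored protein and starch with several unrelated families of inhibitors. Trypsin/alpha-amylase inhibitors of cereals are small cysteine-rich proteins that accumulate in the endosperm, Bowman-Birk inhibitors carry separate reactive sites on one short chain, Kunitz-type inhibitors fold as a compact barrel, and serpins trap a protease by a change of their own shape. They act on enzymes of insects and microbes, and some act on enzymes of the grain itself.

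Values were log2 signals that had been centred on the median of the 12 arrays for each probe set, so a value of 0 is that probe set's own median and levels cannot be compared between probe sets or with background. The labelled tissue could therefore not be checked by the presence of its markers. Replicates correlated with r between 0.590 and 0.903 in IITR26 at 14 DAA, IITR26 at 28 DAA and WL711 at 14 DAA. In WL711 at 28 DAA replicates 2 and 3 correlated with r = 0.672, and replicate 1 correlated with them with r between 0.286 and 0.412 and with the IITR26 arrays of 28 DAA with r between 0.365 and 0.395. Of 1142 probe sets that separated IITR26 from WL711 replicates 2 and 3 by at least 2 log2 units at 28 DAA, 23.6% had replicate 1 nearer to IITR26, against its label. The median place of replicate 1 was 0.19, from 0 at the mean of replicates 2 and 3 to 1 at IITR26. Choosing probe sets by that mean favours such a shift, and the share was not computed for replicates 2 and 3. Whether that array holds only the grains its label names was not tested, and every WL711 mean at 28 DAA includes it. In 4 of the 8 probe sets replicate 1 lay over 1 log2 unit from the mean of replicates 2 and 3: by 1.57 in CMX1/CMX3, 1.42 in the subtilisin/chymotrypsin inhibitor, 1.43 in the Kunitz-type inhibitor and -1.14 in the second Kunitz cluster probe set. Results on these 4 are given with and without that array.

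More of the 8 separated the genotypes at 14 DAA (6) than at 28 DAA (3). A probe set was called where limma gave an adjusted p of at most 0.01 over all 61179 probe sets and a log2 difference of at least 2. At 14 DAA 5 of the 8 were called higher in IITR26 (CMX1/CMX3, the subtilisin/chymotrypsin, Bowman-Birk and Kunitz-type inhibitors and the serpin), against 0.595% of all probe sets. The subtilisin homologue was called lower in IITR26, against 0.772% of all, and WCI and the second Kunitz cluster probe set were not called. At 28 DAA the Bowman-Birk inhibitor alone was called higher in IITR26 (background 0.566%), WCI and the second Kunitz cluster probe set were called lower (background 0.804%), and the other 5 were not called. The arrays of the 2 genotypes did not overlap in 6 of the 8 at 14 DAA and in 4 of the 8 at 28 DAA, against 31.7% and 28.2% of all probe sets. The median log2 difference of the 8 was 3.17 at 14 DAA and -0.40 at 28 DAA, beside medians of 0.01 and -0.0001 over all probe sets.

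**Figure D1:**
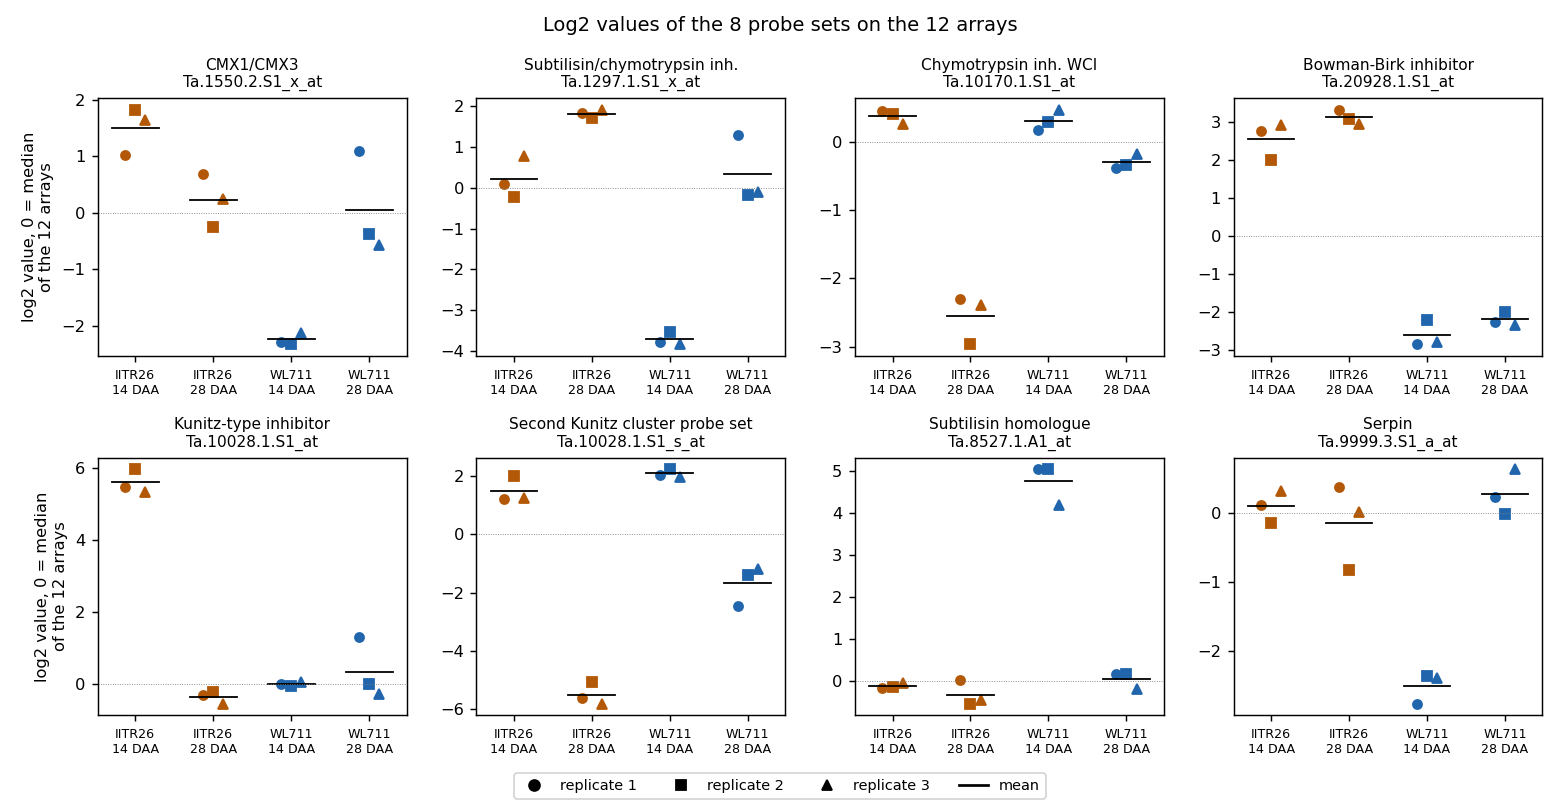
Log2 value of each of the 8 probe sets on each of the 12 arrays (vertical axis, 0 is the probe set's median over the arrays, scales differ between panels) by group (horizontal axis). Symbols are replicates 1 to 3 and lines are group means, with probe set identifiers above the panels; IITR26 lies above WL711 at both stages for the Bowman-Birk inhibitor, and replicate 1 of WL711 at 28 DAA lies apart from replicates 2 and 3 for CMX1/CMX3.

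**Figure D2:**
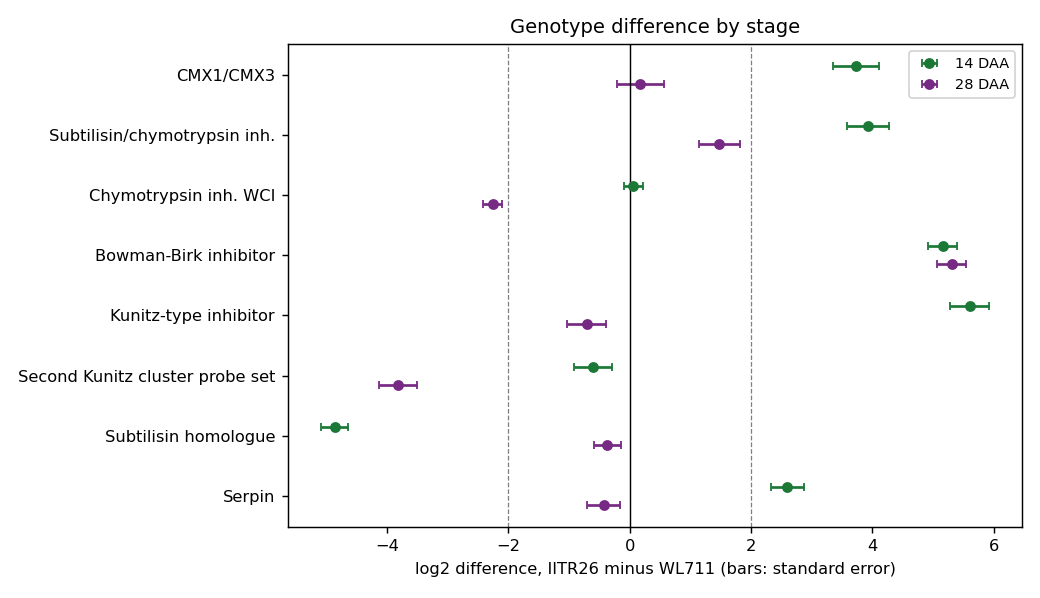
Log2 difference between the genotypes (horizontal axis, IITR26 minus WL711) for each probe set at 14 and 28 DAA, with standard errors as bars and dashed lines at the log2 difference of 2 used for calls. The Bowman-Birk inhibitor has nearly the same difference at both stages (5.16 and 5.31), and the Kunitz-type inhibitor goes from 5.60 to -0.71.

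The trypsin/alpha-amylase inhibitor CMX1/CMX3 belongs to the family that inhibits trypsin, alpha-amylase or both. It read 1.02, 1.82 and 1.64 in IITR26 at 14 DAA and -2.28, -2.32 and -2.12 in WL711 at 14 DAA. At the later stage it read 0.68, -0.25 and 0.25 in IITR26 and 1.09, -0.37 and -0.57 in WL711. WL711 at 14 DAA was thus the low group, below every other array, and the genotypes overlapped at 28 DAA. The log2 difference, IITR26 minus WL711, was 3.73 at 14 DAA (SE 0.39, 13.3-fold, limma adjusted p = 8e-05). At 28 DAA it was 0.18 with a 95% interval of -0.67 to 1.02 (adjusted p = 0.83), and 0.70 without WL711 replicate 1 (adjusted p = 0.11). From 14 to 28 DAA CMX1/CMX3 rose by a log2 difference of 2.29 in WL711 (SE 0.39, adjusted p = 0.0012), which became 1.77 without replicate 1 (adjusted p = 0.00097), under the log2 difference of 2. In IITR26 it was -1.27 (SE 0.39, adjusted p = 0.031), not called.

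The suffix (_x_at) of the CMX1/CMX3 probe set described marks probes that may also bind other transcripts. Other probe sets of its cluster, which may bind related transcripts too, gave different sizes. The first of them read 1.04, 1.21 and 1.0 in IITR26 and -5.71, -5.96 and -5.57 in WL711 at 14 DAA, a log2 difference of 6.83 (SE 0.97, adjusted p = 0.00075). In WL711 at 28 DAA it read 0.96, -4.23 and -3.56, so that replicate 1 stood with IITR26 (0.36, -0.21 and 0.21) and the other arrays did not. Its log2 difference at 28 DAA was 2.40 (SE 0.97, adjusted p = 0.13) with that array and 4.01 (SE 0.22, adjusted p = 6.1e-07) without it. Omega-gliadin, a storage protein of the starchy endosperm, had the same split in WL711 at 28 DAA, -0.14 in replicate 1 and -8.03 as the mean of replicates 2 and 3. The other probe set of the cluster, Ta.1550.2.S1_at, bears the same sequence number as the one described but not its suffix. It differed by 0.98 at 14 DAA (SE 0.17, adjusted p = 0.0024) and by 0.01 at 28 DAA (adjusted p = 0.99), and was not called.

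The subtilisin/chymotrypsin inhibitor, a potato inhibitor I type protein that acts on bacterial subtilisins and on chymotrypsin, rose toward 28 DAA in WL711. In WL711 its arrays moved from -3.78, -3.53 and -3.83 to 1.29, -0.17 and -0.10 between the stages. In IITR26 it read 0.10, -0.23 and 0.77 at 14 DAA and 1.85, 1.70 and 1.92 at 28 DAA. Within each stage every IITR26 array lay above every WL711 array, and within each genotype every 28 DAA array lay above every 14 DAA array. WL711 at 28 DAA and IITR26 at 14 DAA shared a range. The genotype difference was 3.93 at 14 DAA (SE 0.34, 15.2-fold, limma adjusted p = 2.2e-05). By 28 DAA it was 1.48 (SE 0.34, adjusted p = 0.011), and 1.96 without replicate 1 (adjusted p = 0.00019), in both cases under the log2 difference of 2. The rise with stage was 4.06 in WL711 (SE 0.34, adjusted p = 6.8e-06; 3.58 without replicate 1) and 1.61 in IITR26 (SE 0.34, adjusted p = 0.0042, under the log2 difference of 2).

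The second probe set of that cluster followed it closely, with a root mean square difference of 0.21 over the 12 arrays. It differed between the genotypes by 3.95 at 14 DAA (adjusted p = 0.00018) and by 1.68 at 28 DAA (adjusted p = 0.026). Without WL711 replicate 1 the latter was 2.31 (adjusted p = 0.00038), which passed both thresholds.

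WCI, a chymotrypsin inhibitor (gene LOC542996 in the array annotation), set IITR26 at 28 DAA apart from the other groups. It read 0.46, 0.40 and 0.26 in IITR26 and 0.17, 0.29 and 0.47 in WL711 at 14 DAA, where the genotypes overlapped. At 28 DAA it read -2.31, -2.96 and -2.39 in IITR26 and -0.38, -0.34 and -0.17 in WL711, with no overlap. IITR26 minus WL711 was 0.06 at 14 DAA with a 95% interval of -0.29 to 0.41 (limma adjusted p = 0.90). At 28 DAA it was -2.26 (SE 0.16, 4.78-fold lower in IITR26, adjusted p = 3.5e-06). The fall with stage was -2.93 in IITR26 (SE 0.16, adjusted p = 2.3e-07) and -0.61 in WL711 (SE 0.16, adjusted p = 0.018, not called). After quantile normalization of the deposited values the difference at 28 DAA was -1.51 (adjusted p = 9.9e-05), under the log2 difference of 2.

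Markers of the endosperm transfer cells, which carry nutrients from the mother plant into the grain, were also low in IITR26 at 28 DAA. Both probe sets of that list were called lower there, PR9 by a log2 difference of -7.16 and PR60 by -4.06, and the part of these cells in the WCI result was not tested. At 14 DAA neither was called (-1.25 and -0.17). Markers of other tissues were also called lower in IITR26 at 28 DAA (background 0.804%). These were 2 of 7 of the green pericarp, 1 of 4 of the starchy endosperm and 1 of 4 of the embryo and aleurone. In the embryo and aleurone list 2 were called higher (background 0.566%). The part of these tissues was not tested either.

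The Bowman-Birk inhibitor, a cysteine-rich inhibitor of trypsin and chymotrypsin, separated the genotypes at both stages and was not called for a change with stage. It read 2.75, 1.99 and 2.92 in IITR26 and -2.84, -2.20 and -2.78 in WL711 at 14 DAA. In older grains it read 3.32, 3.09 and 2.95 in IITR26 and -2.25, -1.99 and -2.34 in WL711. All 6 IITR26 arrays lay above all 6 WL711 arrays. The log2 difference was 5.16 at 14 DAA (SE 0.24, 35.8-fold, limma adjusted p = 1.3e-07) and 5.31 at 28 DAA (SE 0.24, 39.7-fold, adjusted p = 1.1e-07). The change of this difference with stage was 0.15 with a 95% interval of -0.59 to 0.89 (adjusted p = 0.85). The change from 14 to 28 DAA was 0.57 in IITR26 (SE 0.24, adjusted p = 0.11) and 0.41 in WL711 (SE 0.24, adjusted p = 0.27).

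The other 3 probe sets of the Bowman-Birk cluster had differences below 1 in log2 units. Their genotype differences were 0.13, 0.54 and 0.49 at 14 DAA and 0.32, 0.32 and 0.66 at 28 DAA in the same order, and none was called. The smallest adjusted p among these 6 values was 0.016. The named probe sets outside its cluster with the pattern most like that of the Bowman-Birk inhibitor, by root mean square difference over the 12 arrays, were an F-box and FBD domain protein (0.477), an FBD-associated F-box protein (0.529) and the protein transport protein SecE (0.534), all from the study's list of genotype differences.

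The 2 probe sets of the Kunitz-type cluster did not follow each other. Kunitz-type inhibitors block serine proteases such as trypsin and subtilisin. The named probe set read 5.49, 5.98 and 5.36 in IITR26 at 14 DAA, and between -0.55 and 1.30 on the other 9 arrays. Those 9 were -0.32, -0.22 and -0.55 in IITR26 at 28 DAA, -0.002, -0.05 and 0.06 in the younger WL711 grains and 1.30, 0.002 and -0.27 in the older ones. IITR26 at 14 DAA was the single high group. This gave a genotype difference of 5.60 at 14 DAA (SE 0.32, 48.6-fold, limma adjusted p = 7.2e-07). It was -0.71 at 28 DAA (SE 0.32, adjusted p = 0.18), and -0.23 without WL711 replicate 1. The fall in IITR26 was -5.97 (SE 0.32, 62.8-fold, adjusted p = 2.1e-07), and the change in WL711 was 0.34 with a 95% interval of -0.37 to 1.04 (adjusted p = 0.53). Without replicate 1 that change was -0.14 (adjusted p = 0.67), so its sign rested on 1 array.

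The second probe set, whose suffix (_s_at) marks probes shared by several transcripts, was high at 14 DAA in both genotypes. It read 1.2, 1.98 and 1.25 in IITR26 and 2.04, 2.23 and 1.98 in WL711 at 14 DAA, with overlap. By 28 DAA it read -5.61, -5.07 and -5.81 in IITR26 and -2.44, -1.41 and -1.20 in WL711, with none. The genotype difference was -0.60 at 14 DAA with a 95% interval of -1.29 to 0.08 (adjusted p = 0.29). It was -3.81 at 28 DAA (SE 0.31, 14.1-fold lower in IITR26, adjusted p = 1.1e-05; -4.20 without replicate 1). This probe set is not in the study's list. It fell with stage in both genotypes, by a log2 difference of -6.98 in IITR26 (SE 0.31, adjusted p = 7.8e-08) and -3.76 in WL711 (SE 0.31, adjusted p = 5.9e-06; -3.38 without replicate 1). As for WCI, the transfer cell markers PR9 and PR60 and some markers of other tissues were low in the same group. Their part in this result was not tested.

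The centred value of the first Kunitz probe set minus that of the second was 4.13 ± 0.15 (SD, n = 3) in IITR26 at 14 DAA and 5.13 ± 0.25 in IITR26 at 28 DAA. It was -2.08 ± 0.18 in the younger WL711 grains and 2.03 ± 1.51 in the older ones, where the arrays read 3.74, 1.41 and 0.92. The 2 genotypes thus stood apart in this difference at each stage, and the root mean square difference between the probe sets was 3.66 over the 12 arrays.

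In all, 10 other probe sets shared a cluster with one of the 8, none of them in the study's list. limma called 4 of the 10 higher in IITR26 at 14 DAA (background 0.595%) and 0 lower (background 0.772%; 9 and 0 at an unadjusted p under 0.05). All 10 had IITR26 arrays above WL711 arrays with no overlap at 14 DAA (background 31.7%), and at 28 DAA limma called 0 of them (with no adjustment of p, 4 passed 0.05, all higher in IITR26). Without WL711 replicate 1 at 28 DAA, 2 of the 10 were called higher there, those of the CMX1/CMX3 and subtilisin/chymotrypsin clusters already given (4.01 and 2.31).

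**Figure D3:**
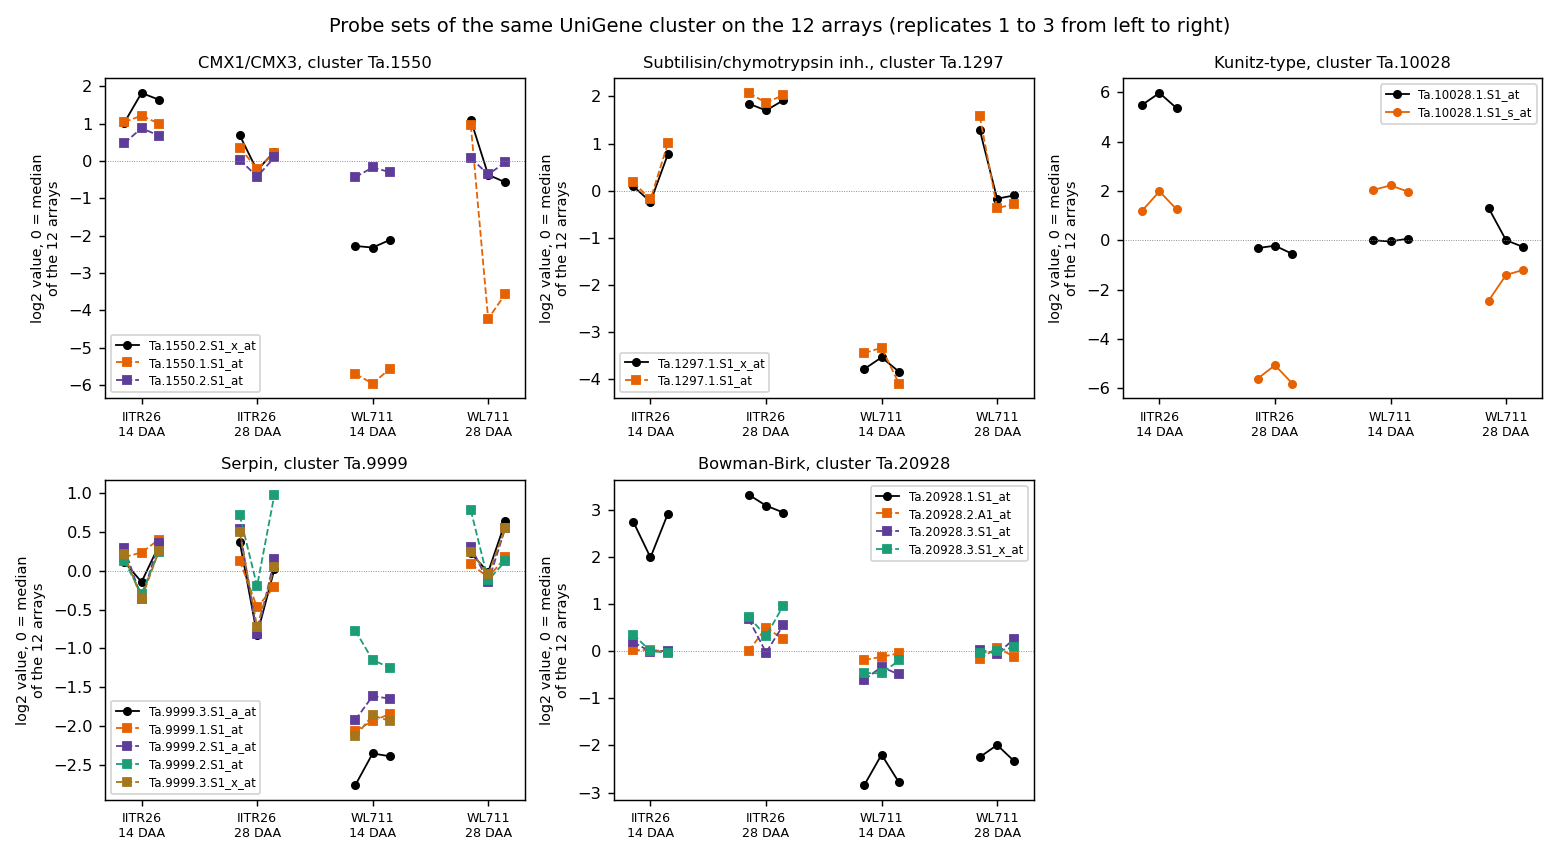
Log2 values (vertical axis, 0 is the median of the 12 arrays) of the probe sets that share a UniGene cluster with an inhibitor described here, by group, with replicates 1 to 3 from left to right; solid lines are the probe sets described and dashed lines the other members of the cluster. The subtilisin/chymotrypsin pair runs together (0.21 root mean square difference), the Kunitz-type pair does not (3.66), and in the Bowman-Birk cluster 1 probe set has genotype differences above 5 and the other 3 stay below 1.

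The serpin, from the family of suicide inhibitors that is abundant in wheat endosperm, was low in WL711 at 14 DAA and overlapped among the other 3 groups. It read -2.76, -2.35 and -2.39 in that group, against 0.11, -0.15 and 0.32 in IITR26 at 14 DAA. Later it read 0.37, -0.82 and 0.02 in IITR26 and 0.23, -0.02 and 0.63 in WL711, which overlapped. IITR26 exceeded WL711 by 2.60 at 14 DAA (SE 0.27, 6.06-fold, limma adjusted p = 8.9e-05), and the difference was -0.42 at 28 DAA with a 95% interval of -1.02 to 0.17 (adjusted p = 0.36). In WL711 it rose by 2.78 from 14 to 28 DAA (SE 0.27, 6.88-fold, adjusted p = 2.1e-05). In IITR26 the change was -0.24 with a 95% interval of -0.84 to 0.36 (adjusted p = 0.60).

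Its 4 cluster neighbours, none of them in the study's list, had log2 differences of 2.22 (adjusted p = 2.1e-06), 2.01 (adjusted p = 0.00057), 1.82 (adjusted p = 0.0026) and 1.08 (adjusted p = 0.038) at 14 DAA, and the first 2 were called. Their rises in WL711 were 2.0, 2.23, 1.97 and 1.32 in the same order. Probe sets of one cluster may share transcripts and are not separate observations of the gene.

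Serpins named through RefSeq gene synonyms gave 5 probe sets of 4 genes. That list was not picked by the study for genotype differences, but it was added after the files were opened. Some of its probe sets may share transcripts and are not separate observations. All 5 had IITR26 arrays above WL711 arrays with no overlap at 14 DAA (background 31.7%), with log2 differences of 1.22 to 2.40. Serpin-Z2B was called higher (2.40, SE 0.36, adjusted p = 0.0012; background 0.595%). It read 0.62, -0.47 and 0.76 in IITR26 and -2.0, -1.94 and -2.34 in WL711. The 4 that were not called were Serpin-Z1C at 1.26 (adjusted p = 0.013), Serpin-Z2A at 1.44 (adjusted p = 0.051) and the probe sets of WSZ1b at 1.49 and 1.22 (adjusted p = 5.5e-05 for each). At 28 DAA limma called 0 of the 5, with differences of -0.19 to 0.32 and 0 at an unadjusted p under 0.05. From 14 to 28 DAA in WL711, 2 of the 5 were called higher (background 0.958%), Serpin-Z2B by 2.35 and Serpin-Z2A by 2.27, and the other 3 had differences of 0.91 to 1.70.

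The alpha-amylase inhibitors named in the same way were called at neither stage. The list held 5 probe sets of 3 genes, among them the monomeric inhibitor WMAI-1, and their differences were -0.0001 to 0.27 at 14 DAA and -0.65 to -0.33 at 28 DAA. At 28 DAA all 5 had no overlap between genotypes (background 28.2%) and 4 of the 5 had an adjusted p of at most 0.01, the share of all probe sets with such a p being 9.73%. limma called 0 of the 5 at either stage, since none reached the log2 difference of 2, and at an unadjusted p under 0.05 1 was higher at 14 DAA and 5 were lower at 28 DAA. The lowest was a probe set of the trypsin/alpha-amylase inhibitor gene LOC543281, which read -0.55, -0.79 and -0.58 in IITR26 and -0.03, 0.03 and 0.02 in WL711 at 28 DAA (log2 difference -0.65, SE 0.09, adjusted p = 0.00047).

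The subtilisin homologue, by name a serine protease of the class that several of these inhibitors act on, was high in WL711 at 14 DAA and nowhere else. It read 5.03, 5.04 and 4.18 there, against -0.16, -0.13 and -0.04 in IITR26 at the same stage. At 28 DAA it read 0.04, -0.53 and -0.45 in IITR26 and 0.17, 0.16 and -0.18 in WL711. The lowest of the high group lay well above every one of the other 9 arrays. The genotype difference was -4.86 at 14 DAA (SE 0.22, 29.1-fold lower in IITR26, limma adjusted p = 1.2e-07) and -0.37 at 28 DAA with a 95% interval of -0.86 to 0.12 (adjusted p = 0.33). It fell by a log2 difference of -4.70 in WL711 (SE 0.22, 26.0-fold, adjusted p = 1e-07), while the change in IITR26 was -0.21 (SE 0.22, adjusted p = 0.59).

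Of the probe sets called between 14 and 28 DAA, the second Kunitz cluster probe set alone was called in both genotypes. In IITR26 3 of the 8 fell (WCI and both Kunitz cluster probe sets; background 1.59%), and limma called 0 higher (background 1.33%; the subtilisin/chymotrypsin and Bowman-Birk inhibitors rose at an unadjusted p under 0.05, and the unadjusted test of the study's methods called 0). In WL711 3 rose (CMX1/CMX3, the subtilisin/chymotrypsin inhibitor and the serpin; background 0.958%) and 2 fell (the second Kunitz cluster probe set and the subtilisin homologue; background 1.34%). Without WL711 replicate 1 at 28 DAA, 2 rose and 2 fell. The arrays of the 2 stages did not overlap in 6 of the 8 in each genotype, against 37.9% of all probe sets in IITR26 and 36.9% in WL711. The median change of the 8 was -0.75 in IITR26 and 0.38 in WL711, beside 0.01 and 0.03 over all probe sets.

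**Figure D4:**
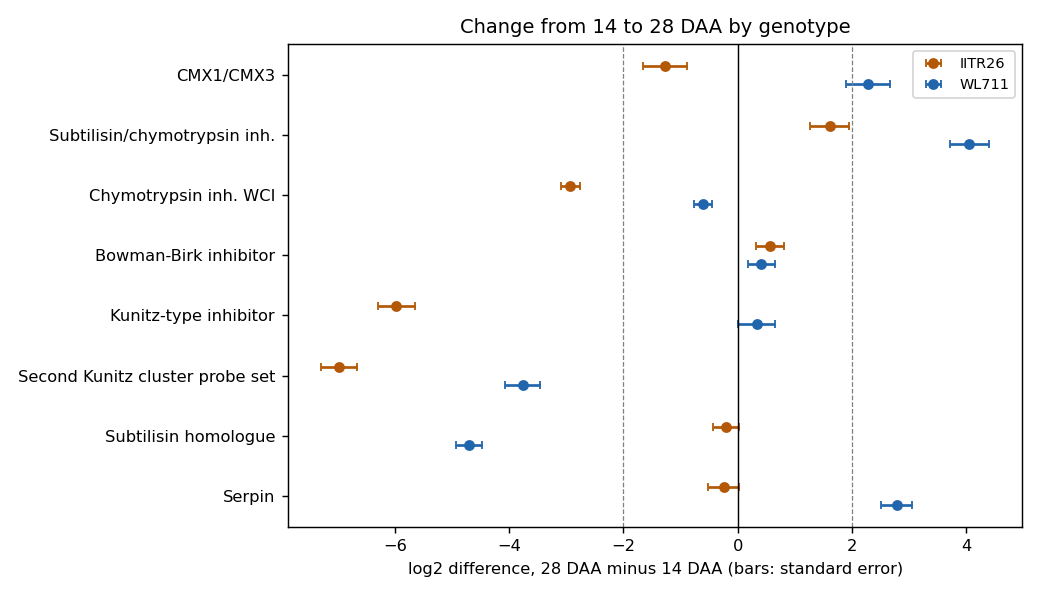
Log2 change from 14 to 28 DAA (horizontal axis) of each probe set in IITR26 and in WL711, with standard errors as bars and dashed lines at the log2 difference of 2 used for calls. The Kunitz-type inhibitor falls in IITR26 (-5.97) and is not called in WL711 (0.34, and -0.14 without replicate 1 at 28 DAA), and the subtilisin homologue falls in WL711 (-4.70) and reads -0.21 in IITR26.

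The difference between the genotypes changed with stage in 7 of the 8, by the interaction of genotype and stage in limma. The genotype difference was lower at 28 than at 14 DAA in 6 (background 0.796%) and higher for the subtilisin homologue (background 0.729%). The sizes ran from -6.31 for the Kunitz-type inhibitor to 4.49 for the subtilisin homologue. The call for the subtilisin/chymotrypsin inhibitor (-2.45, adjusted p = 0.0079) was lost in 9 of the 12 fits that left out 1 array. Without WL711 replicate 1 at 28 DAA its interaction was -1.97 (adjusted p = 0.0027). Ordered by group mean, WL711 at 14 DAA was the lowest group for CMX1/CMX3, the subtilisin/chymotrypsin inhibitor, the Bowman-Birk inhibitor and the serpin, and it was not called apart from WL711 at 28 DAA for the Bowman-Birk inhibitor. IITR26 at 28 DAA was the lowest for the other 4, called apart from the next group for WCI and the second Kunitz cluster probe set and not for the Kunitz-type inhibitor or the subtilisin homologue.

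The study's list also held other enzyme inhibitors, proteases of several classes and amylases, all picked for differences between these genotypes. Of 6 other inhibitors of proteases and amylases, 5 were lower in IITR26 at 14 DAA (background 0.772%) and limma called 0 higher (background 0.595%; 0 also at an unadjusted p under 0.05), the opposite direction to the 5 inhibitors above. Of 3 probe sets named as cystatins, which inhibit cysteine proteases, 2 had the largest differences of that list at 14 DAA (-7.54 and -6.45) and the other had the smallest (-0.61, adjusted p = 0.16) and was lower at 28 DAA instead (-4.66). At 14 DAA a probe set named for cysteine-type endopeptidase inhibitor activity differed by -4.76, and a peptidase inhibitor by -4.88. The alpha-amylase/subtilisin inhibitor differed by -2.71 at that stage. Of 3 xylanase inhibitors, which act on enzymes that fungi use against cell walls, 2 were higher in IITR26 at 14 DAA (background 0.595%). Of 11 proteases 9 were lower in IITR26 at 14 DAA (background 0.772%), as the subtilisin homologue was, and 1 was higher. Of 2 amylases, the alpha-amylase was higher at 14 DAA (2.55) and the isoamylase lower at 28 DAA (-2.42).

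**Figure D5:**
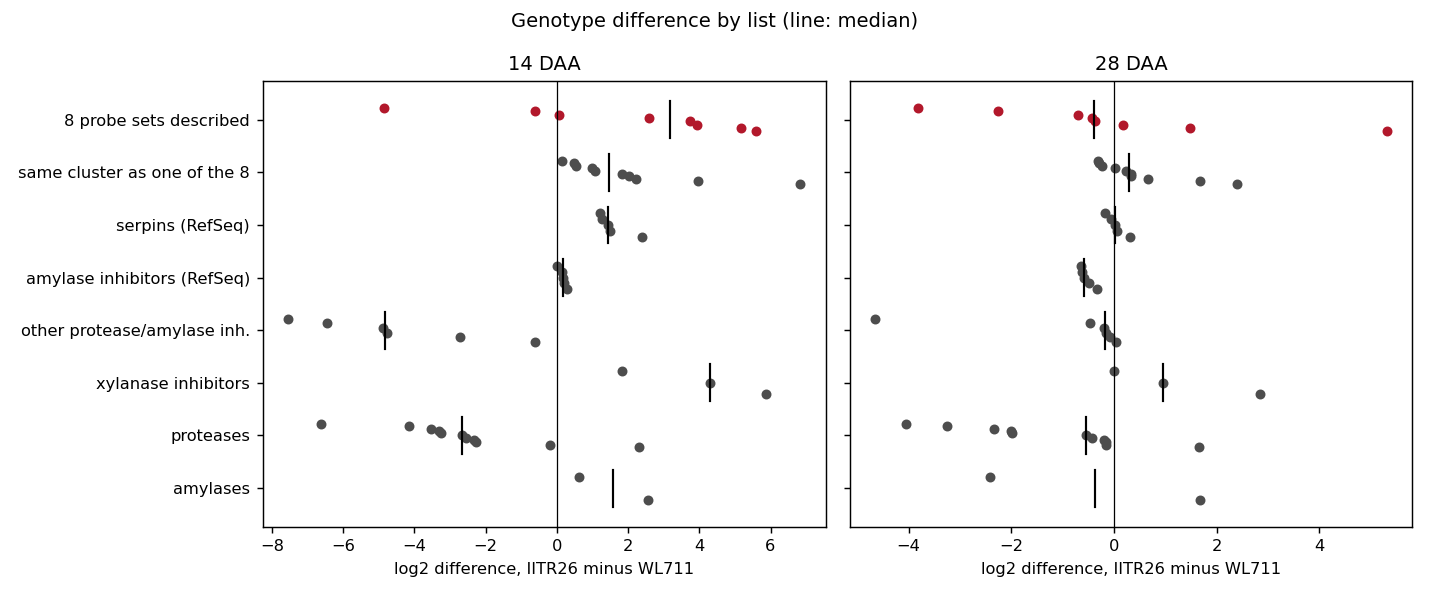
Log2 difference between the genotypes (horizontal axis, IITR26 minus WL711) at 14 DAA (left) and 28 DAA (right) of every probe set of each list, with the median as a line. The 8 probe sets described have a median of 3.17 at 14 DAA and the 6 other protease and amylase inhibitors one of -4.82; apart from the serpin and amylase inhibitor lists named through RefSeq and the cluster neighbours, the lists were picked by the study for such differences.

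Markers of other grain tissues moved with the same contrast at 14 DAA. Of 4 storage protein probe sets of the starchy endosperm 3 were higher (background 0.595%) and 1 lower in IITR26 (log2 differences of -3.58 to 8.56), and 2 of the 4 rose with stage in WL711 (background 0.958%), as CMX1/CMX3, the subtilisin/chymotrypsin inhibitor and the serpin did. Of 7 probe sets of photosynthetic proteins of the green pericarp 5 were lower in IITR26 at 14 DAA (background 0.772%). With stage in WL711 6 of the 7 fell (background 1.34%). The subtilisin homologue was called lower in both comparisons too. Of the same 7, 4 also fell with stage in IITR26 (background 1.59%), and 2 were lower in IITR26 at 28 DAA (background 0.804%). There the subtilisin homologue was called in neither comparison. Of 4 embryo and aleurone probe sets 2 were higher (background 0.595% at 14 and 0.566% at 28 DAA) and 1 lower (0.772% and 0.804%) in IITR26 at each stage. Of those higher, oleosin alone was so at both (3.48 at 14 DAA and 2.69 at 28 DAA), as the Bowman-Birk inhibitor was. Group means of oleosin went from -1.40 to 3.74 in IITR26 and from -4.88 to 1.05 in WL711 between the stages. The Bowman-Birk inhibitor was not called for a change with stage. These markers also come from the study's list, and the part of tissue composition in the results was not tested.

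Among probe sets with a name and outside the member's own cluster, the patterns most like the others by the same root mean square difference were those of a beta-glucosidase (0.179) for WCI, a glucan 1,3-beta-glucosidase (0.247) and a Myb transcription factor (0.263) for the subtilisin homologue, and a folic acid binding protein (0.288) and a defensin-like protein (0.317) for the serpin. The nearest named probe sets had larger differences for CMX1/CMX3 (a retrotransposon gag protein, 0.663), the subtilisin/chymotrypsin inhibitor (malic enzyme, 0.739), the second Kunitz cluster probe set (LOC100037556, 0.602) and the Kunitz-type inhibitor (a glucan synthase-like protein, 0.929). The root mean square of the member's own values was 1.42, 2.12, 3.17 and 2.84 for these in the same order. For WCI, the subtilisin homologue and the serpin it was 1.32, 2.39 and 1.30. Differences were not scaled to it, so they do not rank closeness between members.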

How the data were processed

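Grain RNA of 12 samples, 3 for each of 4 groups of genotype and stage, was hybridised to the 61290 probe sets of an Affymetrix wheat array. The authors normalized the scanner intensities by RMA in GeneSpring GX, and the deposited log2 values have in addition a median of 0 over the 12 arrays for each probe set, a step not given in the sources used here. Depth has no meaning for arrays; their number limits the precision. A set of 111 Affymetrix control probe sets was left out, and 0 columns belonged to no sample of the series.

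The 61179 probe sets left were fitted with limma 3.58.1 in R 4.3.3, with 1 mean per group, eBayes moderation, contrasts for genotype, stage and their interaction, and Benjamini-Hochberg adjustment over all of them. Calls needed a log2 difference of 2 or more in size and an adjusted p no higher than 0.01. The scripts were tested on simulated data.

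The 8 probe sets and the lists were chosen with earlier results of these data known. Named were the 8, all other probe sets of their clusters and the nearest patterns by root mean square difference. From each comparison list of the study's names up to 4 were named, and all 6 of the other protease and amylase inhibitors. Those named were not in every case the ones with the largest genotype differences. Gene symbols of the array annotation matched none of the key words for inhibitors, so serpins and amylase inhibitors were found through RefSeq synonyms instead (1272 of 1273 annotated probe sets had their gene ID in the table, assembly IWGSC CS RefSeq v2.1), a list added after the files were opened. The other names are those of the study's list, and its values were not used.

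Alternatives were quantile normalization, aligned array medians, robust moderation, only the arrays compared, and the methods' t-test with and without adjustment. Other thresholds (0.05 and 1), the replicate number as a block, and leaving out each array were also used. A further alternative left out those probe sets whose ID suffix (x, s, a) marks probes not unique to a single transcript.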

Additional observations from a re-analysis of the deposited data

Results flagged for a closer look

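In 7 of the 8 probe sets the difference between IITR26 and WL711 at 28 DAA departed from that at 14 DAA. This was tested as the interaction of genotype and stage in limma, called lower in 6 (background 0.796%) and higher in 1 (background 0.729%). As 7 of the 8 stand in the study's list of differences at either stage, such a change is not independent evidence. The log2 size of the change is given for each with its adjusted p. It was -6.31 for the Kunitz-type inhibitor (adjusted p = 1.3e-05), which was high in IITR26 at 14 DAA and in no other group. It was 4.49 for the subtilisin homologue (adjusted p = 1.1e-05), which was high in WL711 at 14 DAA alone. It was -3.55 for CMX1/CMX3 (adjusted p = 0.0018), -2.45 for the subtilisin/chymotrypsin inhibitor (adjusted p = 0.0079) and -3.02 for the serpin (adjusted p = 0.00057), all 3 low in WL711 at 14 DAA. It was -2.32 for WCI (adjusted p = 9.3e-05), and -3.21 for the second Kunitz cluster probe set (adjusted p = 0.00095), both lowest in IITR26 at 28 DAA. Without WL711 replicate 1 at 28 DAA these were -5.83, 4.55, -3.03, -1.97, -3.05, -2.36 and -3.59 in the same order, and the value for the subtilisin/chymotrypsin inhibitor was then under the log2 difference of 2.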

How the results depend on the processing

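Across the 8 probe sets and 5 comparisons, 836 alternative values were computed. Of these 805 kept their call or lack of one, 29 lost the call, 2 gained it and 0 reversed a called value. Among values called in neither setting, 12 changed sign. The 805 include 20 values without suffixes x, s and a, the same by construction, and values at looser thresholds, which cannot lose a call. With Benjamini-Hochberg adjustment the methods' t-test kept 20 and lost 12. The methods' t-test with Benjamini-Hochberg adjustment called 1 higher (5 in limma) and 0 lower (1) at 14 DAA. At 28 DAA it called 0 higher (1) and 0 lower (2), and 0 higher (3) and 1 lower (2) with stage in WL711, with adjusted p of 0.011 to 0.081 for the calls lost. Unadjusted, it called 5, 1, 1, 2, 2 and 2 in the same order. Without suffixes x, s and a, 4 probe sets were left, and by construction 2 were higher at 14 DAA, 1 lower at 28 DAA, 2 lower in the interaction, and 0 higher and 1 lower with stage in WL711. Quantile normalization left 1 lower at 28 DAA, with WCI at -1.51 there and -1.69 in the interaction, where 4 rather than 6 were called lower, the subtilisin/chymotrypsin inhibitor also being lost (-2.15, adjusted p = 0.082). It also ended the rise of CMX1/CMX3 in WL711 (1.80, adjusted p = 0.029) and called its fall in IITR26 (-2.35, adjusted p = 0.0063). The cause was not tested. At a log2 difference of at least 1, 1 rose in IITR26 (0), the subtilisin/chymotrypsin inhibitor. A fit of the WL711 arrays alone ended the CMX1/CMX3 rise (adjusted p = 0.015).

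Leaving out each array moved no count over the 8 by over 1.5 times. Among the 10 cluster neighbours the count called higher at 28 DAA went from 0 to 2 without WL711 replicate 1. Deviations of same-numbered arrays correlated with r between -0.07 and 0.19, and 2 of 18 pairs were over 0.1. The median r between arrays of other numbers was -0.02, and 8 of 12 arrays matched their own number best. Whether samples of the same replicate number were paired was not tested. The replicate block gave the same counts as without it for each genotype and stage comparison, and 5 rather than 6 lower in the interaction, where the subtilisin/chymotrypsin inhibitor had an adjusted p of 0.012.

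Signal over background could not be read from centred values, so a probe set near 0 on most arrays cannot be told apart from one without signal.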
